A study of Mus musculus with 16 samples.

Results

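The collagens and the enzymes and chaperones that process them were followed in the footpads of AIRmax and AIRmin mice, which were selected for a maximal or a minimal acute inflammatory reaction. The gene set was chosen by symbol and holds 39 genes: 8 fibrillar collagens, 4 basement membrane collagens, 11 other collagens and 16 enzymes and chaperones. Of these, 37 were measured, each by 1 probe set, among 19938 genes in all. Loxl2 lies only on a probe set that names several genes and Adamts2 has no probe set of its own in the annotation used, so neither was analysed here.

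Total RNA of footpads was hybridized to 16 arrays, 4 for each line and treatment, from 2 males and 2 females per group, and the study describes the 4 as biological replicates. AIRmax control (arrays 105 to 108) and AIRmin control (113 to 116) footpads were taken at day 0. AIRmax pristane (109 to 112) and AIRmin pristane (117 to 120) footpads were taken at day 160 from mice given 2 intraperitoneal injections of 0.5 ml of pristane, a hydrocarbon oil that induces arthritis in mice, with an interval of 60 days. Treatment and time therefore cannot be told apart in either line, and the days are counted from the second injection. The age label is 2 to 4 months in every group. It cannot be the age at sampling in the pristane groups, since 160 days from the second injection is longer than 4 months. Age at sampling is not labelled and cannot be told apart from treatment. Both lines are outbred stocks, bred in opposite directions from an intercross of the inbred strains C57BL/6J, BALB/cJ, CBA/J, SJL/J, SWR/J, P/J, DBA/2J and A/J, so the mice of a group differ in genotype. A footpad holds skin, fat, muscle, tendon, bone and joint tissue, and fewer cells of a type and less RNA per cell cannot be told apart in such bulk samples.

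Collagen chains are hydroxylated on prolines and lysines in the endoplasmic reticulum, wind into triple helices with the help of chaperones, and are secreted as procollagens. Outside the cell, propeptidases remove their ends and lysyl oxidases crosslink the fibrils. Fibroblasts of the dermis, tendon and synovium are the main makers of the fibrillar types, bone and cartilage add their own, and new collagen is laid down in chronically inflamed joints.

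All values below are deposited log2 signals, so a difference of 1 is a change of 2-fold, and levels of different genes are not compared. A gene passed the test at a Benjamini-Hochberg adjusted p under 0.05 over all 19938 genes with limma, which is the adjusted p given throughout. Where 4 values are listed, they follow the order of the arrays, with the 2 males first. The array medians ran from 5.435 to 5.53. The lowest signal of any measured gene of the set was 4.94. It lies above the 2.04 to 4.32 that Xist in males and Y-linked transcripts in females gave, transcripts the tissue lacks. All 10 fibroblast markers, all 12 skeletal muscle markers, all 7 osteoblast and osteocyte markers measured and 7 of 9 chondrocyte markers were above that level. Single arrays stood apart within their groups. Array 109 was the lowest AIRmax pristane array for 32 of the 37 genes and 108 the lowest AIRmax control array for 28. Array 116 was the highest AIRmin control array for 25 genes and 118 the highest AIRmin pristane array for 24.

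With pristane, 13 of the 37 genes differed between the lines, and all 13 were higher in AIRmax. They were 4 fibrillar collagens (Col3a1, Col5a1, Col5a2 and Col5a3), both type IV chains (Col4a1 and Col4a2), Col6a3, Col12a1 and 5 enzymes and chaperones (P4ha3, Plod1, Plod3, Lox and Serpinh1). Over all genes, 1.36% passed in this comparison, and 0.853% passed with the higher level in AIRmax. The median log2 difference, AIRmax minus AIRmin, was 0.80 over the 37 genes and -0.01 over all genes, and 36 of the 37 were positive. Every AIRmax pristane array lay above every AIRmin pristane array for 24 of the 37 genes, against 5.04% of all genes. By class, the median was 1.15 for the fibrillar collagens, 0.90 for the basement membrane collagens, 0.53 for the other collagens and 0.79 for the enzymes and chaperones.

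With sex as a covariate 9 of the 13 passed, and Col4a1, Col6a3, Plod1 and Serpinh1 did not, with adjusted p values of 0.0515 to 0.0608 and the same differences. The number that passed depended on single arrays. It was 20 without array 109, 3 without 111, 2 without 112, 2 without 119 and 0 without 117 or 120. The numbers over all genes in these fits are not given here. The 13 log2 differences stayed positive each time an array was left out, between 0.64 and 2.02. SAM, the test of the study's methods, called 21 of the 37 genes and 966 of all genes. With all 16 arrays in 1 fit 27 of the 37 passed, and the number over all genes is not given here. Both included the 13. Markers of other cells moved with the lines. The skeletal muscle score, the mean deviation of 12 markers from their means over all arrays, was -1.67 to -0.06 on the AIRmax pristane arrays and 0.23 to 0.62 on the AIRmin pristane arrays. All 12 markers were lower in AIRmax, of which 1 passed, myoglobin (Mb). With that score as a covariate 0 of the 37 genes passed and the 13 differences were 0.49 to 1.51. Since the score did not overlap between the lines, the part of muscle and the part of the line cannot be told apart in that fit. The macrophage score was 0.41 to 0.95 in AIRmax and -0.82 to -0.23 in AIRmin pristane footpads. Of 10 macrophage markers 5 passed, all higher in AIRmax, and all 10 had an unadjusted p under 0.05. The fibroblast score was -0.25 to 0.11 in AIRmax and -0.57 to -0.12 in AIRmin. Its 10 markers had a median difference of 0.15, and 1 of them, Lum, passed. At an unadjusted p under 0.05 there were 3, with 2 higher and 1 lower. All 8 footpad keratinocyte markers had lower values in AIRmax, with a median difference of -0.77, and 0 passed (2 at an unadjusted p under 0.05). Their score was -1.63 to 0.26 in AIRmax and -0.32 to 0.80 in AIRmin. All 7 adipocyte markers were also lower in value, with a median of -0.44 and 0 passing (0 at an unadjusted p under 0.05). The medians were 0.39 for 8 endothelial, 0.19 for 7 osteoblast and osteocyte, -0.10 for 9 chondrocyte and 1.1998 for 6 granulocyte precursor markers. Of these 0 passed (1, 1, 2 and 0 at an unadjusted p under 0.05). At day 0 the granulocyte precursor markers already had a median difference of 2.08, with 0 passing. All 6 had an unadjusted p under 0.05 there, against 16.8% of all genes. Medians of the other marker lists at day 0 ran from -0.26 (adipocyte) to -0.05 (macrophage). The part of macrophages, fibroblasts, keratinocytes and these other cells in the collagen differences was not tested.

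**Figure D1:**
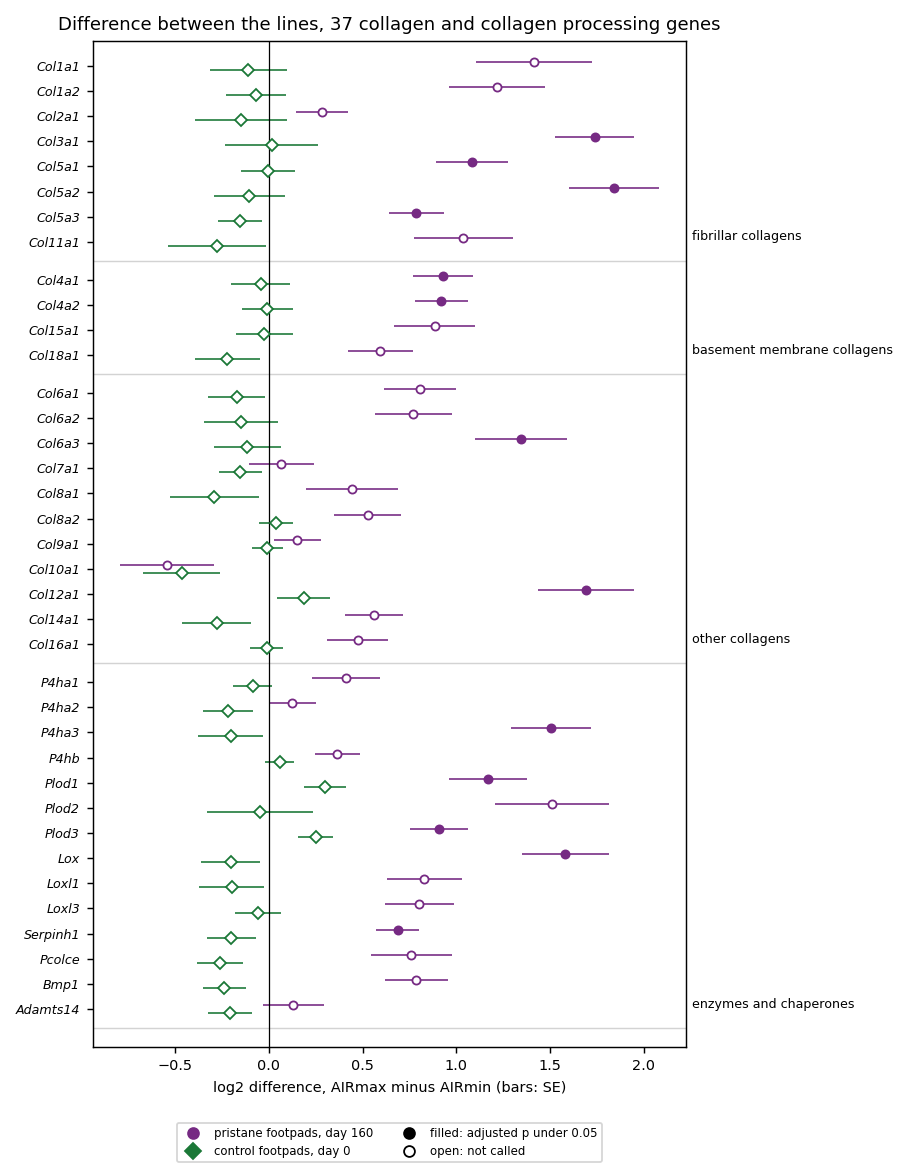
Log2 difference, AIRmax minus AIRmin (horizontal axis), of the 37 measured genes (vertical axis, by class) in pristane footpads at day 160 and control footpads at day 0. Bars are standard errors and filled symbols passed at an adjusted p under 0.05. In pristane footpads 13 genes passed and 36 differences were positive, while at day 0 none passed and the differences lay between -0.47 and 0.30.

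The upstream bases of genes that were higher in AIRmax than in AIRmin with pristane are shown because they hold short motifs of promoters. RefSeq promoter sequences of the build GRCm38.p6 were at hand for 27 of the 37 genes and for 10 of the 13, the other 3 being Col5a2, Col12a1 and Lox. P4ha3 is shown as the gene that rose in AIRmax, and Col3a1 as the collagen with the smallest adjusted p between the lines. The P4ha3 window is chr7:100285270-100285488 and the Col3a1 window chr1:45311288-45311537, both on the plus strand and both ending at the base before the first annotated transcript start. Capitals mark GGGCGG, the GC box letters, in P4ha3 and TATAAA, the TATA box letters, in Col3a1.
P4ha3: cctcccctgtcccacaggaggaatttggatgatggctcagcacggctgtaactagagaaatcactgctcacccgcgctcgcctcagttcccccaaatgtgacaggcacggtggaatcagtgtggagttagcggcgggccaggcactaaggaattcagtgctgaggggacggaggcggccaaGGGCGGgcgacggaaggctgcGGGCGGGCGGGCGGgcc
Col3a1: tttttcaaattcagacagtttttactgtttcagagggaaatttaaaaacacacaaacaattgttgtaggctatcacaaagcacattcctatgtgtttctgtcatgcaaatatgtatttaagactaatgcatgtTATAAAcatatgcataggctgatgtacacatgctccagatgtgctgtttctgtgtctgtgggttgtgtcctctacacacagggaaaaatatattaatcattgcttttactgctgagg
The P4ha3 window holds 4 matches to GGGCGG, 3 of them overlapping, that begin 9 to 38 bases before the start. The Col3a1 window holds 1 match to TATAAA, 117 bases before the start. Motifs were counted on either strand of the first 250 bases of each promoter sequence. For P4ha3 these run past the first annotated start, before which its window of 219 bases ends. GGGCGG was in 6 of the 10 genes that passed, in 13 of the 17 others and in 35.4% of 27025 promoters. CCAAT was in 4 of the 10, 7 of the 17 and 37.5%. TATAAA was in 2 of the 10 (Col3a1 and Plod1), 1 of the 17 (Col10a1) and 14.3%, and TGANTCA, the AP-1 letters, in 0 of the 10, 1 of the 17 (Col6a1) and 7.82%. Matches of different motifs were counted separately, and a match is a description of the letters only.

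Of the 8 fibrillar collagens, 4 passed between the lines with pristane. Col3a1 encodes the single chain of type III collagen, a partner of type I in skin, vessels and repairing tissue.
Col3a1 signals in AIRmax mice were 11.24, 11.61, 11.01 and 10.35 in control and 11.30, 11.97, 11.90 and 11.87 in pristane footpads. Col3a1 signals in AIRmin mice were 11.24, 11.09, 10.63 and 11.20 in control and 10.28, 10.33, 9.52 and 9.95 in pristane footpads. All AIRmin pristane arrays were below the other 3 groups, and control array 108 lay just above the highest of them. The difference between the lines with pristane was 1.74 (standard error 0.21, adjusted p = 0.0139), a ratio of 3.34.
Col5a2, a chain of type V collagen, which is built into type I fibrils and limits their width, is the neighbour of Col3a1 on the chromosome. Col5a2 signals in AIRmax mice were 9.12, 9.35, 9.11 and 8.68 in control and 9.41, 9.85, 10.23 and 10.24 in pristane footpads. Col5a2 signals in AIRmin mice were 9.42, 8.98, 8.78 and 9.49 in control and 7.98, 8.55, 7.60 and 8.23 in pristane footpads. Pristane arrays lay above all controls in AIRmax and below all controls in AIRmin. The lines differed by 1.84 with pristane (standard error 0.24, adjusted p = 0.0166), a ratio of 3.59.

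Col5a1, the chain present in most type V molecules, had signals of 7.79, 7.98, 7.73 and 7.54 in AIRmax control and 7.86, 8.63, 8.80 and 8.64 in AIRmax pristane footpads. Col5a1 signals in AIRmin mice were 8.01, 7.54, 7.53 and 7.97 in control and 7.27, 7.52, 7.39 and 7.41 in pristane footpads. Array 109 alone made the AIRmax groups overlap, and the AIRmin groups were just apart. The lines with pristane differed by 1.09 (standard error 0.19, adjusted p = 0.0358). Col5a3, the third type V chain, had signals of 6.75, 6.89, 6.96 and 6.501 in AIRmax control and 7.14, 7.53, 7.79 and 7.65 in AIRmax pristane footpads. Col5a3 signals in AIRmin mice were 6.93, 6.88, 6.81 and 7.10 in control and 6.57, 6.79, 6.89 and 6.71 in pristane footpads. The AIRmax groups did not overlap and the AIRmin groups did. Col5a3 differed by 0.79 between the lines with pristane (standard error 0.15, adjusted p = 0.0426). Col3a1 and Col5a2 did not pass without array 117 or 120. Col5a1 also did not pass without 111, 112 or 119, and Col5a3 passed only without 109 among the left-out arrays. With quantile normalization Col5a3 had a difference of 0.78 and an adjusted p of 0.0521, and did not pass, while Plod2 did. With one array left out the differences were 1.57 to 1.89 for Col3a1, 1.68 to 2.02 for Col5a2, 0.98 to 1.29 for Col5a1 and 0.70 to 0.92 for Col5a3.

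The chains of type I collagen, the main protein of skin, tendon and bone, had large differences that did not pass. Col1a1 signals in AIRmax mice were 12.41, 12.32, 11.97 and 12.40 in control and 12.07, 12.78, 12.83 and 12.84 in pristane footpads. Col1a1 signals in AIRmin mice were 12.73, 12.13, 11.89 and 12.79 in control and 10.85, 11.93, 10.52 and 11.54 in pristane footpads. AIRmin pristane arrays were spread over more than 1 log2 unit but stayed below all AIRmax pristane arrays. The difference was 1.42 (standard error 0.31, adjusted p = 0.0614) for Col1a1 and 1.22 (standard error 0.26, adjusted p = 0.0568) for Col1a2, and the lines did not overlap for either. Col11a1, which nucleates cartilage fibrils, differed by 1.04 (adjusted p = 0.0856), and Col2a1, the main cartilage collagen, by 0.28 (adjusted p = 0.309).

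**Figure D2:**
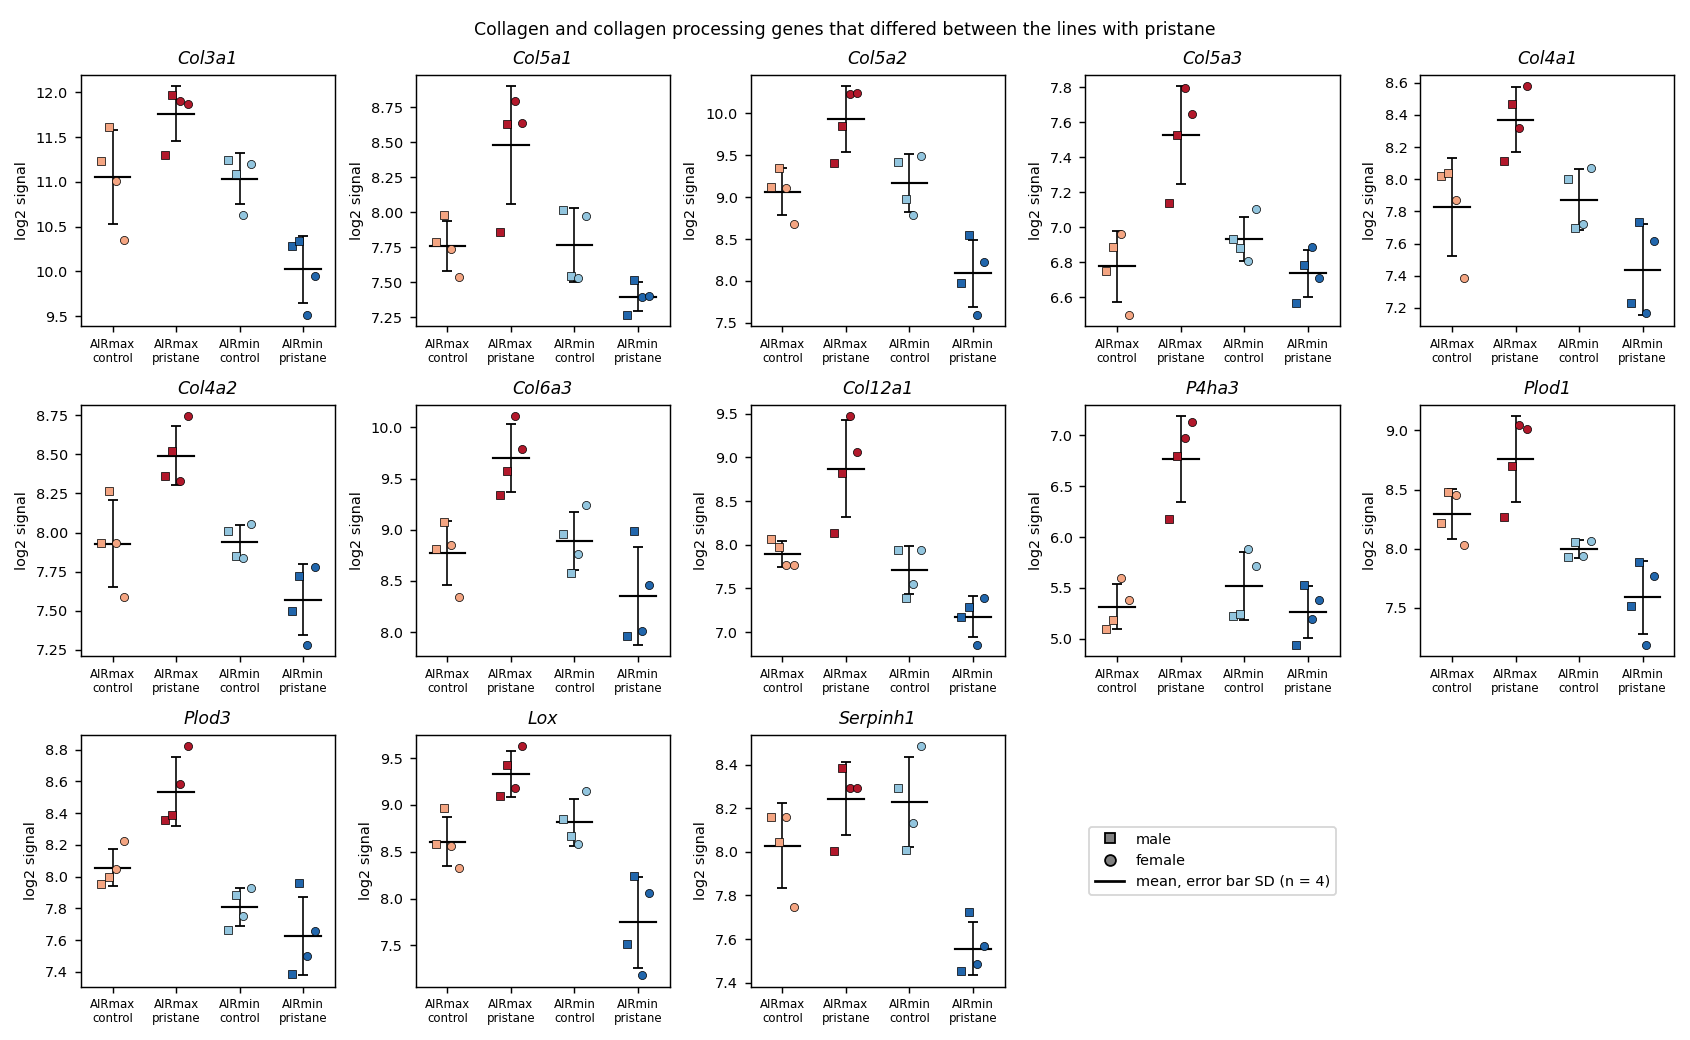
Log2 signal (vertical axes) of the 13 genes that passed between the lines with pristane, on each array of the 4 groups (horizontal axes). Males are drawn as squares and females as circles, and the horizontal bar with its whiskers is the mean and SD of 4 arrays. In each panel all 4 AIRmax pristane arrays lie above all 4 AIRmin pristane arrays, and array 109, the first square of the AIRmax pristane group, is often the lowest of its group.

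Both type IV chains, which form the network of basement membranes and are encoded head to head on opposite strands, passed. Col4a1 signals in AIRmax mice were 8.02, 8.04, 7.87 and 7.39 in control and 8.11, 8.47, 8.32 and 8.58 in pristane footpads. Col4a1 signals in AIRmin mice were 7.999, 7.69, 7.72 and 8.07 in control and 7.23, 7.74, 7.17 and 7.62 in pristane footpads. The AIRmax groups did not overlap, while in AIRmin array 118 reached the lower controls. Col4a2 signals in AIRmax mice were 7.93, 8.27, 7.94 and 7.58 in control and 8.36, 8.52, 8.33 and 8.74 in pristane footpads. Col4a2 signals in AIRmin mice were 8.01, 7.85, 7.84 and 8.05 in control and 7.50, 7.72, 7.28 and 7.78 in pristane footpads. Control and pristane arrays of Col4a2 did not overlap in either line. The difference between the lines with pristane was 0.93 for Col4a1 (standard error 0.16, adjusted p = 0.0331) and 0.92 for Col4a2 (standard error 0.14, adjusted p = 0.0273). Neither passed without array 111, 112, 117, 119 or 120, where all differences were at least 0.82, and Col4a1 did not pass with sex as a covariate (adjusted p = 0.0527). Col15a1 and Col18a1, collagens with interrupted helices that lie at basement membranes, differed by 0.89 (adjusted p = 0.0781) and 0.60 (adjusted p = 0.116).

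Among the 11 other collagens 2 passed. Col6a3 encodes the longest chain of type VI collagen, which forms beaded filaments between cells and fibrils. Col6a3 signals in AIRmax mice were 8.81, 9.08, 8.86 and 8.34 in control and 9.33, 9.57, 10.11 and 9.79 in pristane footpads. Col6a3 signals in AIRmin mice were 8.96, 8.58, 8.77 and 9.24 in control and 7.96, 8.99, 8.01 and 8.46 in pristane footpads. The AIRmin groups overlapped through array 118, and the AIRmax groups did not overlap. The lines differed by 1.35 with pristane (standard error 0.25, adjusted p = 0.0395). Its partner chains Col6a1 and Col6a2 differed by 0.81 (adjusted p = 0.0736) and 0.77 (adjusted p = 0.0954), without overlap. Col12a1, a collagen that coats fibrils in tendon and skin, had the widest AIRmax pristane spread of the set (SD 0.56). Col12a1 signals in AIRmax mice were 8.06, 7.97, 7.77 and 7.77 in control and 8.14, 8.82, 9.47 and 9.06 in pristane footpads. Col12a1 signals in AIRmin mice were 7.94, 7.39, 7.56 and 7.94 in control and 7.18, 7.29, 6.85 and 7.39 in pristane footpads. Controls and pristane arrays did not overlap in either line, by a narrow gap in both. The lines differed by 1.69 with pristane (standard error 0.26, adjusted p = 0.0247), a ratio of 3.23. Col6a3 did not pass without array 111, 112, 117, 119 or 120 (difference at least 1.21), nor Col12a1 without 112, 117, 119 or 120 (at least 1.49).

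Col10a1, the collagen of hypertrophic cartilage, was the 1 gene of the 37 with a negative difference between the lines with pristane, -0.55 (standard error 0.25, adjusted p = 0.281). Col10a1 signals in AIRmax mice were 7.42, 7.73, 7.57 and 7.28 in control and 6.76, 6.45, 5.61 and 5.95 in pristane footpads. Col10a1 signals in AIRmin mice were 7.37, 8.07, 7.95 and 8.47 in control and 6.94, 7.04, 6.49 and 6.48 in pristane footpads. All pristane arrays lay below all controls of the same line, with changes of -1.31 in AIRmax (adjusted p = 0.0665) and -1.23 in AIRmin (adjusted p = 0.0761) that did not pass. Osteoblast and osteocyte markers had median changes of -0.50 in AIRmax and -0.90 in AIRmin, with 0 of 7 passing in either line. At an unadjusted p under 0.05 there were 5 and 7, all lower, against 14.4% and 12.4% of all genes. Chondrocyte markers had median changes of -0.17 and -0.12, with 0 of 9 passing (3 and 1 at that p, all lower). The part of bone and cartilage tissue in the Col10a1 values was not tested. The remaining collagens of this class had differences between the lines with pristane of 0.07 for Col7a1, the anchoring fibril collagen of skin, to 0.56 for Col14a1, a fibril-coating collagen, and did not pass.

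Of 14 enzymes and chaperones measured, 5 passed between the pristane footpads. P4ha3 encodes 1 of the 3 catalytic subunits of prolyl 4-hydroxylase, whose product, hydroxyproline, stabilizes the triple helix. P4ha3 signals in AIRmax mice were 5.10, 5.19, 5.59 and 5.38 in control and 6.17, 6.80, 6.97 and 7.13 in pristane footpads. P4ha3 signals in AIRmin mice were 5.23, 5.24, 5.89 and 5.71 in control and 4.94, 5.53, 5.20 and 5.38 in pristane footpads. Only the AIRmax pristane group stood above the other 3 groups, without overlap. The lines differed by 1.51 with pristane (standard error 0.21, adjusted p = 0.0204), a ratio of 2.84. The other subunits had smaller differences that did not pass, 0.41 for P4ha1, 0.13 for P4ha2 and 0.37 for P4hb, the shared beta subunit.

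Lysyl hydroxylases prepare the sites of crosslinks and sugar attachment. Plod1 signals in AIRmax mice were 8.22, 8.48, 8.46 and 8.03 in control and 8.27, 8.70, 9.05 and 9.01 in pristane footpads. Plod1 signals in AIRmin mice were 7.93, 8.05, 7.94 and 8.07 in control and 7.52, 7.89, 7.18 and 7.76 in pristane footpads. The AIRmin groups did not overlap, and the AIRmax groups did. Plod3 signals in AIRmax mice were 7.95, 7.999, 8.05 and 8.22 in control and 8.35, 8.39, 8.58 and 8.82 in pristane footpads. Plod3 signals in AIRmin mice were 7.66, 7.88, 7.75 and 7.93 in control and 7.39, 7.96, 7.50 and 7.66 in pristane footpads. For Plod3 the AIRmax groups were separate and the AIRmin groups overlapped. The lines with pristane differed by 1.17 for Plod1 (standard error 0.21, adjusted p = 0.0361) and by 0.91 for Plod3 (standard error 0.15, adjusted p = 0.0329). Plod2, which hydroxylates the telopeptides, differed by 1.51 (standard error 0.30) and did not pass (adjusted p = 0.0507).

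Lox, the lysyl oxidase that starts the crosslinking of fibrils, differed by 1.58 between the lines with pristane (standard error 0.23, adjusted p = 0.0243), a ratio of 2.99. Lox signals in AIRmax mice were 8.58, 8.97, 8.56 and 8.33 in control and 9.09, 9.42, 9.18 and 9.62 in pristane footpads. Lox signals in AIRmin mice were 8.85, 8.67, 8.58 and 9.15 in control and 7.51, 8.24, 7.18 and 8.06 in pristane footpads. Its pristane arrays lay above all controls in AIRmax and below all controls in AIRmin. The related oxidases Loxl1 and Loxl3 differed by 0.83 (adjusted p = 0.0753) and 0.80 (adjusted p = 0.0709). Serpinh1, the collagen chaperone HSP47, had signals of 8.16, 8.04, 8.16 and 7.75 in AIRmax control and 8.002, 8.39, 8.29 and 8.29 in AIRmax pristane footpads. Serpinh1 signals in AIRmin mice were 8.29, 8.01, 8.13 and 8.48 in control and 7.45, 7.72, 7.48 and 7.57 in pristane footpads. The AIRmin pristane group was below the other 3 groups and the AIRmax groups overlapped. Serpinh1 differed by 0.69 with pristane (standard error 0.12, adjusted p = 0.0321). The C-propeptidase Bmp1 differed by 0.79 (adjusted p = 0.058), its enhancer Pcolce by 0.76 (adjusted p = 0.108) and the N-propeptidase Adamts14 by 0.13 (adjusted p = 0.716). P4ha3, Plod1, Plod3, Lox and Serpinh1 did not pass without array 111, 112, 117, 119 or 120. Without any 1 of the 8 arrays their differences were at least 1.39, 1.03, 0.81, 1.39 and 0.64, in that order.

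Within AIRmax, pristane footpads were compared with control footpads. P4ha3 rose by 1.46 (standard error 0.21, adjusted p = 0.0355), a ratio of 2.74, and was the 1 gene of the 37 that passed. Of all genes 0.281% passed, and 0.14% passed as higher with pristane. The AIRmax pristane arrays enter both this comparison and that between the lines. The median change of the 37 genes was 0.42 against 0.03 over all genes, and 35 of the 37 changes were positive, against 55.7% of all genes. Pristane arrays lay above all controls for 10 of the 37 genes (5.09% of all genes). The fibrillar collagens had a median change of 0.53, the basement membrane collagens 0.55, the other collagens 0.34 and the enzymes and chaperones 0.43. The changes nearest to the threshold after P4ha3 were -1.31 for Col10a1, 0.75 for Col5a3 and 0.93 for Col6a3 (adjusted p = 0.0986 for both of the latter), and those of Col1a1 and Col1a2 were 0.35 and 0.19. P4ha3 kept passing without array 109, where 5 genes passed (also Col5a1, Col5a3, Col10a1 and Col12a1). It did not pass without 105, 106, 107, 108, 110, 111 or 112, where its change was 1.33 to 1.55 and 0 of the 37 genes passed. The numbers over all genes in these fits are not given here. SAM called 7 of the 37 genes, 6 of them higher, and 678 of all genes. The adipocyte score went from -0.03 to 0.76 in control to -1.003 to -0.11 in pristane footpads, and the skeletal muscle score from -0.29 to 0.32 in control to -1.67 to -0.06. With the muscle score as a covariate the change of P4ha3 was 1.16 and did not pass. Of 10 macrophage markers 3 passed, all higher. The 10 fibroblast markers had a median change of -0.12, with 7 lower and 0 passing. At an unadjusted p under 0.05 there were 2 of them, both lower, against 14.4% of all genes. Medians were -0.33 for 8 footpad keratinocyte, -0.17 for 8 endothelial and -0.01 for 6 granulocyte precursor markers, with 0 passing (1, 1 and 0 at that p). The part of fat, macrophages and these other cells was not tested.

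**Figure D3:**
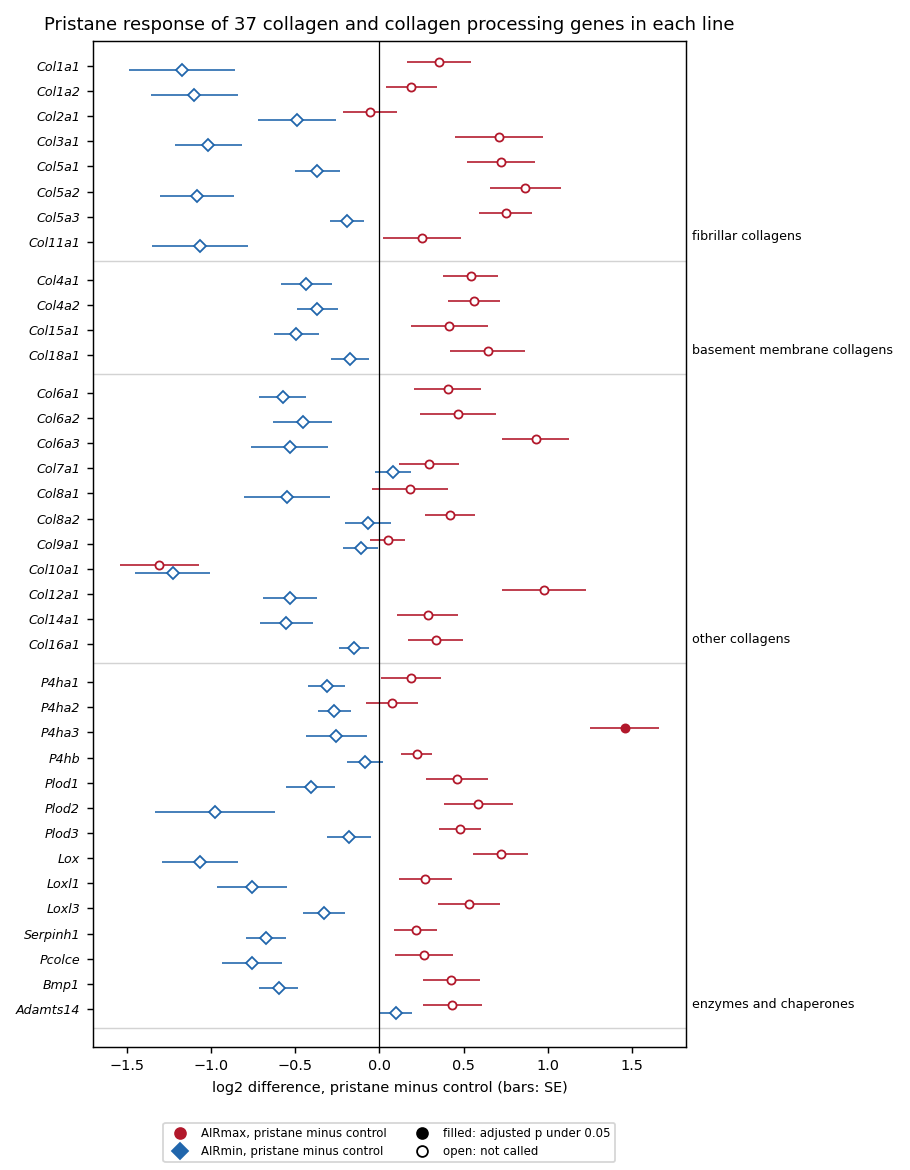
Change with pristane, log2 pristane minus control (horizontal axis), of the 37 genes (vertical axis, by class) in AIRmax and in AIRmin. Bars are standard errors and filled symbols passed at an adjusted p under 0.05, which only P4ha3 in AIRmax did. Changes were mostly positive in AIRmax (35 of 37) and mostly negative in AIRmin (35 of 37), and the change of Col10a1 was negative in both lines.

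Within AIRmin, 0 of the 37 genes passed with limma, as did 0% of all genes. At an unadjusted p under 0.05 there were 25 of the 37, all lower with pristane, where 7.27% of all genes were lower at that p. SAM called 11 of the 37 genes, all lower, and 388 of all genes. The 11 were Col1a1, Col1a2, Col3a1, Col5a2, Col11a1, Col6a1, Col10a1, Lox, Serpinh1, Pcolce and Bmp1. Pristane arrays lay below all controls for 17 of the 37 genes, against 4.32% of all genes. The median change was -0.49 over the 37 genes and 0.02 over all genes, with 35 of the 37 negative. By class it was -1.04 for the fibrillar collagens, -0.40 for the basement membrane collagens, -0.53 for the other collagens and -0.37 for the enzymes and chaperones. The smallest adjusted p was that of Serpinh1 (change -0.67, standard error 0.12, adjusted p = 0.0678). Col1a1 changed by -1.17 (standard error 0.32, adjusted p = 0.165), with a 95% interval that reaches -1.88. For 24 of the 37 genes the interval lay within 1 log2 unit of no change. Without array 118, 6 of the 37 genes passed, all lower: Col1a2, Col5a2, Col10a1, Lox, Serpinh1 and Pcolce. How many of all genes passed in that fit is not given here. The fibroblast score went from 0.01 to 0.54 in control to -0.57 to -0.12 in pristane footpads, with all 10 markers lower and 0 passing (8 at an unadjusted p under 0.05). The skeletal muscle markers had a median change of 0.12. With the score of 6 granulocyte precursor markers as a covariate 16 of the 37 genes passed, and the number over all genes is not given here. That score spread from -2.85 to 0.04 in control and from -2.02 to 1.37 in pristane footpads. Macrophage markers had a median change of -0.51, with all 10 lower and 0 passing (8 at an unadjusted p under 0.05). Of the other markers 0 passed. Their median change was -0.90 for osteoblast and osteocyte markers, as given with Col10a1. The 6 granulocyte precursor markers had 0.90, all higher (0 at an unadjusted p under 0.05). The 7 adipocyte markers had -0.73, all lower (5 at an unadjusted p under 0.05), and the 8 endothelial markers -0.59, all lower (5). The 8 footpad keratinocyte markers had 0.27, with 7 higher (6). The part of these cell types in the changes was not tested.

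The change in AIRmax minus the change in AIRmin was tested over all 16 arrays. Col5a2 (1.95, standard error 0.33, adjusted p = 0.0212), Lox (1.79, standard error 0.30, adjusted p = 0.0212) and P4ha3 (1.71, standard error 0.29, adjusted p = 0.0231) passed, and the AIRmax change was the more positive one for all 3. Over all genes 0.171% passed. The median of this difference was 0.92 over the 37 genes and 0.01 over all genes, and 36 of 37 were positive, the exception being Col10a1 (-0.08, standard error 0.35). The mean of Col5a2 went from 9.07 to 9.93 in AIRmax and from 9.17 to 8.09 in AIRmin, that of Lox from 8.61 to 9.33 and from 8.81 to 7.75, and that of P4ha3 from 5.31 to 6.77 and from 5.52 to 5.26. Serpinh1 (0.89, adjusted p = 0.0572), Col3a1 (1.72), Col5a3 (0.94) and Bmp1 (1.02) followed, the last 3 with adjusted p values of 0.0623 to 0.0627. Without array 109 the number that passed was 13 and without 118 it was 7. It was 1 without 119 (Lox) and 0 without 105, 112, 116 or 117, where the differences of the 3 genes stayed between 1.59 and 1.96. The numbers over all genes in these fits are not given here. With the muscle score as a covariate 0 passed, with differences of 1.39 to 1.61.

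At day 0, 0 of the 37 genes passed between the lines, against 0.0802% of all genes. SAM called 0 of the 37 and 258 of all genes. At an unadjusted p under 0.05 there were 2, against 16.8% of all genes: Plod1, higher in AIRmax by 0.30 (adjusted p = 0.242), and Plod3, by 0.25 (adjusted p = 0.245). Plod3 was also the 1 gene whose groups did not overlap, against 10.3% of all genes in either direction. The median difference was -0.12, with 31 of the 37 negative, against -0.03 and 56.8% over all genes. All 37 of the 95% intervals lay within 1 log2 unit of 0, the widest bounds being -0.93 for Col10a1 and 0.59 for Plod2. No array left out brought a gene to the threshold.

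Females and males were compared within the groups. None of the 37 genes passed, against 0.105% of all genes, and 1 had an unadjusted p under 0.05, against 4.98% of all genes. This was P4ha3, higher in females by 0.38 (adjusted p = 0.516), which passed without array 118. SAM was not run for this comparison. All 37 intervals lay within 1 log2 unit, from -0.67 for Col3a1 to 0.84 for Plod2.

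Across the 4 groups, the mean was highest in AIRmax pristane for 32 of the 37 genes and lowest in AIRmin pristane for 33. The 5 others, Col2a1, Col11a1, Col8a1, Col10a1 and P4ha2, were highest in AIRmin control. The lowest mean of Col10a1 was in AIRmax pristane and that of Adamts14, Col7a1 and Col18a1 in AIRmax control. The median SD was 0.22 in AIRmax control, 0.34 in AIRmax pristane, 0.20 in AIRmin control and 0.23 in AIRmin pristane footpads. The class scores, means of each class's deviations, were 0.03 to 0.76 for the fibrillar collagens on AIRmax pristane arrays and -0.95 to -0.33 on AIRmin pristane arrays. Control arrays lay between -0.23 and 0.50. For the basement membrane collagens the AIRmax pristane scores were 0.09 to 0.75 and the AIRmin pristane scores -0.48 to -0.21.

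**Figure D4:**
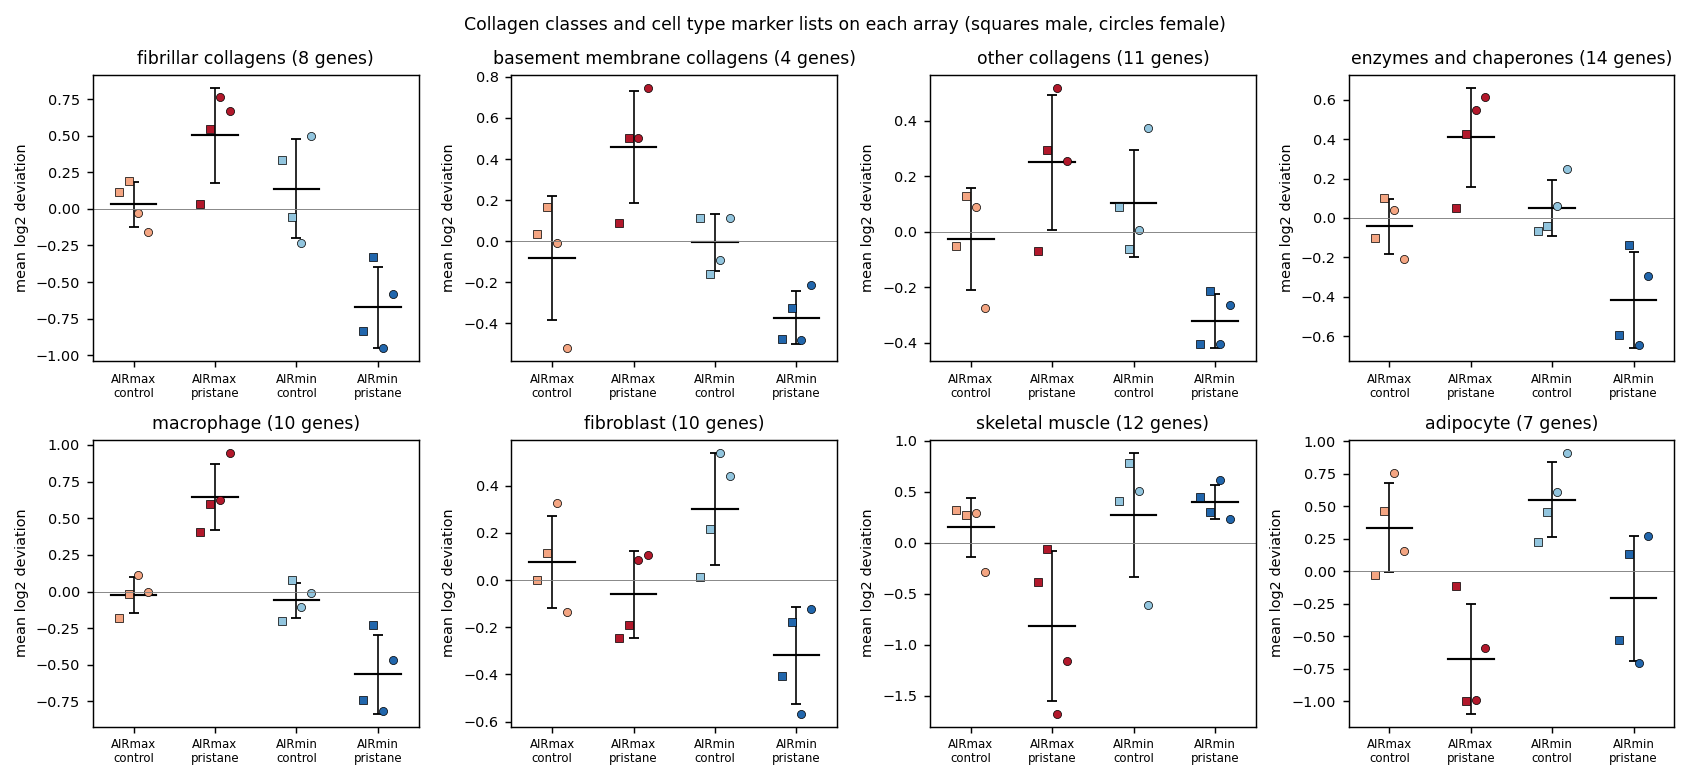
Scores of the 4 classes (upper row) and of 4 cell type marker lists (lower row) on each array, as the mean log2 deviation of the genes of a list from their means over 16 arrays (vertical axes), in the 4 groups (horizontal axes). Males are drawn as squares and females as circles, and the horizontal bar with its whiskers is the mean and SD of 4 arrays. The 4 classes and the macrophage markers were highest in AIRmax pristane and lowest in AIRmin pristane footpads, while skeletal muscle markers were lowest in AIRmax pristane footpads.

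Genes whose products assemble with each other, 6 pairs of collagen chains and 1 pair of enzyme subunits, were compared from mouse to mouse. Deviations from the group means over the 16 arrays were compared by 100000 permutations within groups. Col1a1 and Col1a2, the chains of type I collagen, had r = 0.977 (adjusted permutation p = 0.000163) and rho = 0.982 (adjusted p = 2.33e-05). Col6a1 and Col6a2 had r = 0.977 (adjusted permutation p = 7e-05) and rho = 0.95 (adjusted p = 2.33e-05). Col6a1 and Col6a3 had r = 0.914 and rho = 0.953 with the same adjusted values, Col4a1 and Col4a2 had r = 0.888 (0.00063) and rho = 0.897 (0.000455), and Col5a1 and Col5a2 had r = 0.811 (0.00101) and rho = 0.812 (0.000504). Unadjusted p values of 1e-05, as for 3 of the rho values, are the smallest these permutations can give. Without the 2 arrays farthest from the median of the first gene, r was 0.772 to 0.974 in these 5 pairs. The type VIII chains Col8a1 and Col8a2 had r = 0.198 (adjusted permutation p = 0.592) and rho = 0.212 (adjusted p = 0.55), and r was -0.01 without those 2 arrays. P4ha1 and P4hb, subunits of 1 enzyme, had r = 0.0637 (adjusted permutation p = 0.827) and rho = 0.00294 (adjusted p = 0.996), with r = 0.443 without those 2 arrays. The genes of the set varied together in general. Over the other 659 pairs of the 37 genes the median r was 0.546 (quartiles 0.313 and 0.680), and 41 of them, 6.22%, had r at or above that of Col5a1 and Col5a2. The r of these 7 pairs is therefore given as a description, and nothing particular to partner chains is read from it. No scan, chip or extraction batch is named in the labels, so within-batch values could not be given, and a shift of a whole array would move both genes of a pair.

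**Figure D5:**
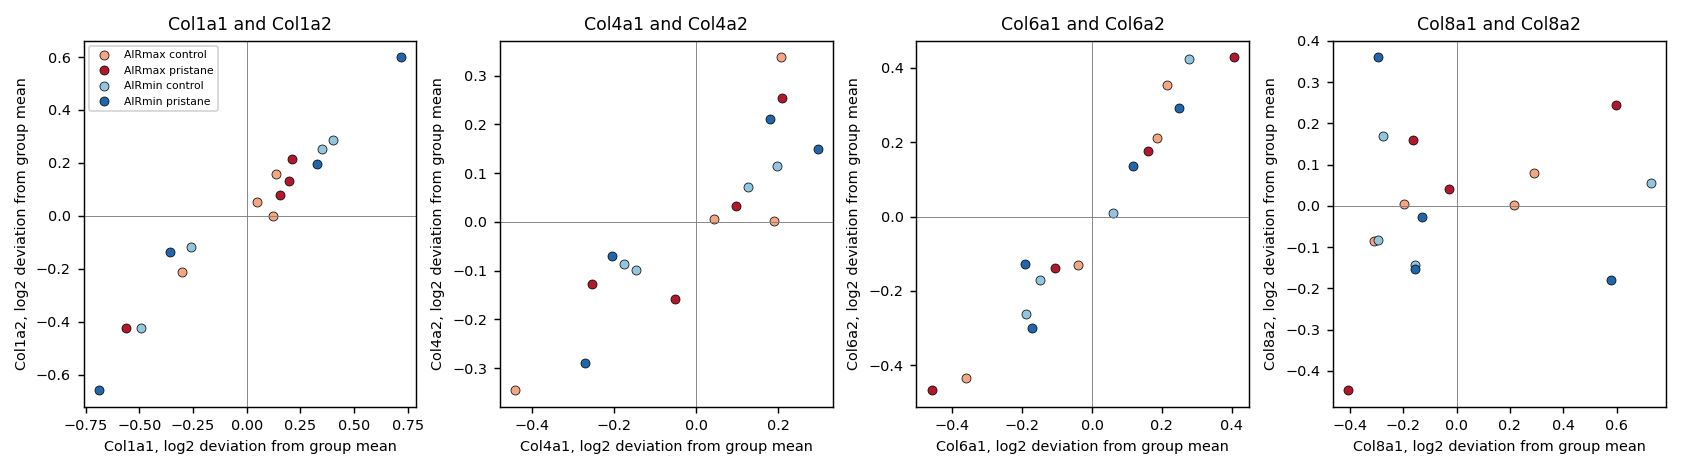
Deviation from the group mean, in log2 units, of 1 chain (horizontal axes) against its partner chain (vertical axes) on the 16 arrays, coloured by group. Points of Col1a1 and Col1a2 (r = 0.977) and of Col6a1 and Col6a2 (r = 0.977) lie close to a line, those of Col4a1 and Col4a2 (r = 0.888) spread more, and those of Col8a1 and Col8a2 (r = 0.198) follow no line.

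Other genes of the pathway were compared between AIRmax and AIRmin pristane footpads in 4 lists. Of 21 further collagens, such as the chains of the kidney and lens type IV collagens, 0 passed, and their median difference was 0.03. Of 20 further genes of maturation and secretion 1 passed, P3h1, a prolyl 3-hydroxylase. Its means were 6.94 in AIRmax and 5.96 in AIRmin pristane footpads (SD 0.24 and 0.27, n = 4), a difference of 0.98 (standard error 0.17, adjusted p = 0.0321). The median of that list was 0.27. Among 15 fibril-associated proteins 1 passed, Lum, or lumican, a proteoglycan on fibrils, with means of 10.57 and 9.37 (SD 0.48 and 0.23) and a difference of 1.198 (standard error 0.23, adjusted p = 0.0431). Their median was 0.31. Of 10 genes of collagen receptors and uptake 0 passed, with a median of 0.27. At an unadjusted p under 0.05 there were 3 of the 21, 10 of the 20, 7 of the 15 and 4 of the 10, against 18.8% of all genes. In either response, at day 0 and in the response difference 0 genes of the 4 lists passed. At an unadjusted p under 0.05 there were, in the same order of lists, 5, 5, 5 and 1 genes in the AIRmax response, against 14.4% of all genes. In the AIRmin response there were 2, 12, 13 and 7, against 12.4% of all genes, so the further collagens lay near that share and the other 3 lists above it. There were 1, 3, 2 and 1 at day 0 (16.8% of all genes), and 3, 8, 7 and 3 for the response difference (8.21% of all genes). SAM was not counted for these lists. All 15 fibril-associated proteins had a negative change in AIRmin, with a median of -0.70. In AIRmax 8 of the 15 changes were negative, with a median of -0.13. Of the 5 at an unadjusted p under 0.05 there, 2 were higher and 3 lower. Postn, or periostin, a matrix protein that binds collagen, was higher in females than in males by 0.57 (standard error 0.09, adjusted p = 0.0308), the 1 gene of these lists to pass for sex.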

How the data were processed

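The authors deposited log2 signals per probe set of 16 Mouse Gene 1.0 ST arrays. The sample titles name the gene-level RMA signal and the submitters' processing notes name MAS5, with no version of either. The log2 values were used as deposited. Of 35556 probe sets, 21789 name 1 gene in the series' annotation (21698 matched RefSeq), 1621 several and 12146 none, and only the first were used. The brightest probe set stood for each of 19938 genes. Groups came from the sample labels.

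Groups were compared in pairs with limma 3.58.1 (lmFit, eBayes) in R 4.3.3, with Benjamini-Hochberg adjustment over all genes and a threshold of 0.05. The response difference and the sex difference used all 16 arrays. Standard errors and 95% intervals are limma's. The fits were tested on simulated data. Python 3.11.15 with numpy 2.4.6, pandas 2.3.3, scipy 1.17.1 and matplotlib 3.10.9 served for the rest. Genes given array by array were those that passed in at least 1 group comparison, and Col1a1 and Col10a1 were added after their values were seen. Genes of the further lists are named where they passed.

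Alternatives were averaging all probe sets of a gene, keeping only genes above the median signal, standardized arrays, quantile normalization, 1 fit over all arrays, a covariate for sex, muscle score or granulocyte precursor score, eBayes with trend and robust options, a minimum of 2-fold, each array left out, and SAM (false discovery rate 0.05, written anew from its description). The genes and lists were chosen with earlier results of these data known. Array signals carry no counted depth, and the number of arrays limits the precision.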

Additional observations from a re-analysis of the deposited data

Results flagged for a closer look

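In 148 groups of 4 arrays (37 genes in 4 groups), 8 had 1 array far from the other 3, where chance gives about 1 group in 20. That number is near the share that chance gives, and the values are listed as a description only. On AIRmax pristane array 109 Col1a1 was 12.07 (12.78 to 12.84 on the others), Col3a1 11.30 (11.87 to 11.97) and Col18a1 6.89 (7.54 to 7.66). On AIRmin control array 116 Col2a1 was 8.34 (7.19 to 7.33 on the others), Col8a1 8.01 (6.99 to 7.13) and Plod2 8.88 (7.46 to 7.63). Col2a1 was 7.71 on AIRmax pristane array 111 (7.16 to 7.20), and Col18a1 was 6.21 on AIRmax control array 108 (6.92 to 7.004). The change with pristane differed between AIRmax and AIRmin, by limma's test of the difference, for Col5a2 (1.95), Lox (1.79) and P4ha3 (1.71).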

How the results depend on the processing

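For the lines with pristane, 13 genes of the set passed as reported, 27 with all 16 arrays in 1 fit, 21 by SAM, 8 at a change of at least 2-fold, 0 when fitted with a muscle score term, and 0 to 20 with each array left out. For the AIRmax response (1 as reported) the numbers were 0 with genes above the median signal only (P4ha3 was not among them), 4 with all arrays in 1 fit, 2 with sex as a covariate, 0 with the muscle score, 7 with the granulocyte precursor score, 7 by SAM and 0 to 5 with each array left out. For the AIRmin response (0) they were 16 with the granulocyte precursor score, 11 by SAM and 0 to 6. For the response difference (3) they were 6 with genes above the median signal, 0 with the muscle score, 14 with the granulocyte precursor score and 0 to 13. For sex (0) they were 0 to 1, and at day 0 none passed under any alternative. The other alternatives stayed within 1.5 times the reported numbers, but not with the same genes: of the 13, sex as a covariate kept 9 and quantile normalization 12. All these numbers count genes of the set. Under the alternatives other than SAM the numbers over all genes are not given here.
With the muscle score some differences turned: Col11a1 (-0.18) and Col8a1 (-0.068) in AIRmax, Col2a1 (-0.045), Col8a1 (-0.14), Col10a1 (0.16) and Adamts14 (-0.25) between the lines with pristane, and Col2a1 (-0.019) and Col10a1 (0.15) in the response difference, where Col10a1 was 0.00658 with the granulocyte precursor score. With 1 array left out, Col2a1 ran from -0.19 to 0.018, Col8a1 from -0.015 to 0.32, Col9a1 from -0.0037 to 0.13 and P4ha2 from -0.052 to 0.16 in AIRmax, Col7a1 from -0.037 to 0.20 between the lines with pristane, and Col10a1 from -0.27 to 0.12 in the response difference. The cause was not tested. None of these results passed as reported.
No paired analysis was possible because each array has a number of its own. With 4 arrays per group a difference must be large against their spread to pass, so a gene that did not pass is not shown to be equal.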
